A study of Mus musculus with 6 samples.

Results

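The 10 genes described here mark resident macrophages or carry the signals that macrophages exchange with neighbouring cells. They are Csf1 and Cx3cl1 (ligands), Csf1r, Cx3cr1, Itgam and Cd163 (surface receptors), Tyrobp and Fcer1g (signalling adaptors), and Cd68 and Aif1 (proteins used to label macrophages in tissue). Every probe set of the array that is annotated to exactly 1 of these genes was taken, without regard to its signal, which gave 19 of the 45101 probe sets. Messenger RNA had been measured on Affymetrix mouse arrays, 1 per mouse, in the modiolus, the bony core of the cochlea with the spiral ganglion, its glia, vessels and bone. The noise-exposed group held 3 CBA/CaJ mice, all females of 1 litter, that, when 4 weeks old, spent 5 h in noise of 110 dB SPL covering 5 to 20 kHz. The 3 unexposed CBA/CaJ mice, 1 female and 2 males from 3 other litters, did not leave the room where both groups were housed. Tissue was taken from mice 8 weeks old, and the modioli of both ears were pooled for each mouse. The noise-exposed mice and unexposed replicate 1, a male, were dissected on the first of 2 days, and unexposed replicates 2 (a female) and 3 (a male) on the second. No array of either group measured a female unexposed mouse of the first day, so sex, litter and day cannot be told apart from the exposure.

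Macrophages live in the cochlea throughout life, among the neurons of the spiral ganglion, in the nerve and along the vessels. Their survival depends on Csf1r, the receptor tyrosine kinase for Csf1 and for interleukin-34. Fractalkine, the product of Cx3cl1, is a chemokine that sits on the membrane of neurons and endothelial cells until proteases release it, and it acts on Cx3cr1, the receptor carried by macrophages and microglia. In mice that lack Cx3cr1, fewer macrophages enter the injured cochlea and more spiral ganglion neurons are lost after hair cell death.

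The regions before the gene starts are shown for both ligands, for the fractalkine receptor, and for Cd68 as a gene of the macrophage itself. Sequences come from RefSeq (C57BL/6J reference, build GRCm38.p6, whereas the mice were CBA/CaJ), each with 250 bases before and 50 after the annotated start, written 5′ to 3′ on the gene's own strand. An entry was found for 8 of the 10 genes.
Cx3cl1, GRCm38.p6 chr8:94771930-94772229, + strand: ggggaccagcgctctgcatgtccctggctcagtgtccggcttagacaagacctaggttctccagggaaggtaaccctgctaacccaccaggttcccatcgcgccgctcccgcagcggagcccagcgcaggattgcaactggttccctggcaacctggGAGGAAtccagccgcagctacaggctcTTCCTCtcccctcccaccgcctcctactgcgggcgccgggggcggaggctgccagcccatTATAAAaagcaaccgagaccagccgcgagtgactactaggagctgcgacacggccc
Cx3cr1, GRCm38.p6 chr9:120068247-120068546, - strand: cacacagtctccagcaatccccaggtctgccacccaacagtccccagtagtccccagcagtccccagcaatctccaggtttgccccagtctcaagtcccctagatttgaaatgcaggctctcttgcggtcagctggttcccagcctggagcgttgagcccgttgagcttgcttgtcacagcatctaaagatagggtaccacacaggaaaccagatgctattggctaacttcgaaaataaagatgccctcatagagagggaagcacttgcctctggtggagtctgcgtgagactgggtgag
Csf1, GRCm38.p6 chr3:107760420-107760719, - strand: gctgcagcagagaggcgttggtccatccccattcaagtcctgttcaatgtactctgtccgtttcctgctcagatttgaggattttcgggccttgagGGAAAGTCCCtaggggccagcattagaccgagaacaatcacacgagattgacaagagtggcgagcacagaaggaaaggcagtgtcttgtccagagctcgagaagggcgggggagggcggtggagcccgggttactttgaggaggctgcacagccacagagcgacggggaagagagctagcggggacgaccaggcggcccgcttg
Cd68, GRCm38.p6 chr11:69666121-69666420, - strand: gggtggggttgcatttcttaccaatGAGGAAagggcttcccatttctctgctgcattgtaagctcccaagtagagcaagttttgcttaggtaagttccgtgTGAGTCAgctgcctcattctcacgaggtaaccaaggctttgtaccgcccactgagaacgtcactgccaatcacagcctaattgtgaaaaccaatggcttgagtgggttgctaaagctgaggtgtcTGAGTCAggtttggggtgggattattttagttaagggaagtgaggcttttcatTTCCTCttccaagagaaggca
Capitals mark matches, on either strand, to 4 short motifs. GAGGAA is the purine-rich core bound by Ets factors such as PU.1, TGAGTCA a site of AP-1 factors, TATAAA the TATA box, and the NF-kappaB form is 3 G, any 2 bases, then TTTCC. The 4 motifs were searched separately, and no 2 matches overlapped in the windows printed. In Cx3cl1 the capitals are 2 Ets cores, the second on the opposite strand, and a match to TATAAA that begins 6 bases before the annotated start. Whether that match serves as a TATA box was not tested. In Csf1 they are 1 NF-kappaB form on the opposite strand, and in Cd68 2 Ets cores and 2 AP-1 sites. The Cx3cr1 window held none of the 4. GAGGAA was present in 4 of the 8 windows (Aif1, Cd68, Cx3cl1 and Itgam) and in 28.3% of the 32851 windows of this length in the table. TATAAA was present in 13.6% of all windows, TGAGTCA in 5.2% and the NF-kappaB form in 1.63%. These matches describe the letters of the windows and do not show binding.

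Of the 19 probe sets, 10 lay above 4.25 on all 6 arrays. That value, on the log2 scale of the deposited signals, is the cutoff the authors set between background and expression. Tests were limited to probe sets with at least 3 of the 6 arrays above it, which left 11 probe sets of 8 genes. Itgam, the alpha chain of the complement receptor and adhesion integrin CD11b, gave 2.63, 2.74 and 2.60 in noise-exposed mice, against 2.64, 2.78 and 2.64 in unexposed mice, on its 1 probe set. Every value lay below the cutoff, so no difference is given. Aif1, which encodes the actin-bundling protein Iba1, gave 3.47, 3.48 and 3.41 in noise-exposed mice, against 3.18, 4.30 and 3.08 in unexposed mice. It lay above the cutoff only in unexposed replicate 2, and its probe set is of the type shared by transcripts of several genes. In all, 5 of the 8 untested probe sets lay below the cutoff on all 6 arrays: that of Itgam, 1 of Csf1, 1 of Cx3cr1 and 2 of Cx3cl1. Detection of macrophage markers was thus uneven. Csf1r, Cd163, Cx3cr1, Cd68, Tyrobp and Fcer1g each had signal over the cutoff in all 6 mice on at least 1 probe set, while Itgam, Adgre1 (a classical macrophage surface antigen), Spi1 (the factor PU.1) and Itgb2 (the partner chain of Itgam) had none that was tested. In whole tissue, fewer cells of a type and less RNA per cell cannot be told apart, and this holds for each difference below.

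The noise comparison asked whether any transcript differed between the groups weeks after the exposure. limma called 0 of the 11 tested probe sets of these genes at an adjusted p under 0.05, and 0% of the 25200 probe sets tested on the array (lowest adjusted p = 0.265). At an unadjusted p under 0.05 there were 2, those of Cx3cl1 and Tyrobp, both higher in noise-exposed mice. Over the whole array 4.13% of tested probe sets were higher and 2.94% lower at that level. With 1 probe set per gene, the one with the highest mean, 6 of the 8 genes were above 0 and 2 below in log2 fold change. Of all 11861 named genes so treated, 63.3% lay above 0. The median of the 8 genes was 0.09, against 0.07 over the named genes. Counted by probe set, 8 of the 11 lay above 0, as did 56.3% of all tested probe sets.

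**Figure D1:**
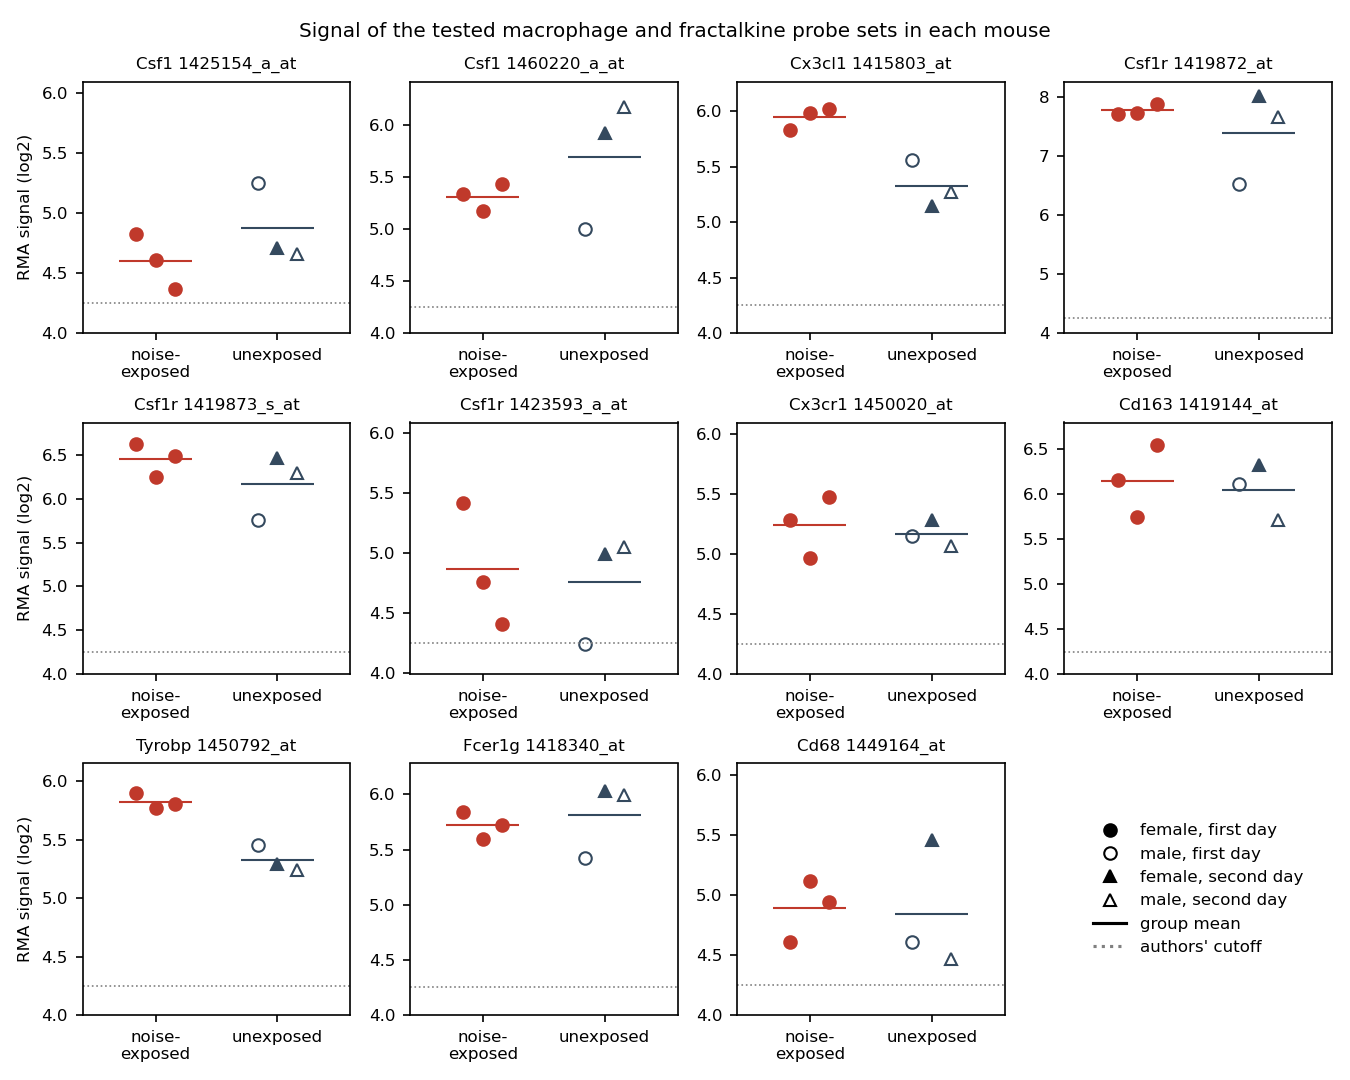
Log2 signal of the 11 tested probe sets in each of the 6 mice, with noise-exposed mice on the left of each panel and unexposed mice on the right. Filled symbols are females, circles the first day of dissection, lines the group means and the dotted line the cutoff of 4.25. Only for Cx3cl1 and Tyrobp do all noise-exposed values lie above all unexposed ones, and unexposed replicate 1 (open circle) is the lowest mouse for each Csf1r probe set.

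Cx3cl1, the fractalkine ligand, had the largest log2 fold change of the 11 probe sets. Its probe set 1415803_at gave 5.83, 5.99 and 6.02 in noise-exposed mice, against 5.56, 5.15 and 5.27 in unexposed mice. The groups did not overlap, and the noise-exposed mice lay within 0.19 of each other. The means were 5.94 ± 0.10 in noise-exposed and 5.33 ± 0.21 in unexposed mice (SD, n = 3 each), a log2 difference of 0.62 (SE 0.16, 95% interval 0.24 to 0.99), or 1.53-fold. It did not pass the test (limma, unadjusted p = 0.00529, adjusted p = 0.667). Since the groups did not overlap, the noise-exposed mean had to exceed each unexposed mouse. It exceeded replicate 1 by 0.38, replicate 2 by 0.80 and replicate 3 by 0.67. The value within the first day, against replicate 1 alone, was thus 0.38 (limma, adjusted p = 0.537), and within females, against replicate 2 alone, 0.80 (adjusted p = 0.306).

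The same probe set also separated the days. The 4 mice of the first day, 3 of them noise-exposed, lay between 5.56 and 6.02, and both mice of the second day between 5.15 and 5.27. Of all tested probe sets 7.86% were higher in every mouse of the first day. The other probe sets of Cx3cl1 did not lie above the cutoff on enough arrays for a test. Probe set 1415804_at gave 4.17, 4.00 and 4.01 in noise-exposed mice, against 4.29, 3.80 and 4.22 in unexposed mice, which overlap. Probe set 1421610_at, below the cutoff on every array, ran the other way, from 2.79 to 2.91 in noise-exposed and from 3.08 to 3.27 in unexposed mice. The difference of Cx3cl1 thus rests on 1 of its 4 probe sets. The fixed list of neuronal markers, 14 of 16 tested, had a mean log2 signal of 9.71 to 9.98 in noise-exposed and 9.70 to 9.85 in unexposed mice. That of endothelial markers, 10 of 10 tested, lay at 5.98 to 6.21 in noise-exposed and at 5.81 to 6.23 in unexposed mice. Both means overlapped between the groups. In the neuronal list 10 genes lay above 0 and 4 below, and in the endothelial list 9 and 1. Only the neuronal marker Tubb3 had no overlap, at 0.48 (adjusted p = 0.667 in limma). Of all named genes, 63.3% lay above 0 and 10.4% were without overlap and higher. A part of neurons or endothelial cells in the difference of Cx3cl1 was not tested.

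Csf1, the growth factor of macrophages and osteoclasts, gave no single direction. Its brightest probe set 1460220_a_at gave 5.34, 5.17 and 5.43 in noise-exposed mice, against 5.00, 5.92 and 6.17 in unexposed mice. Unexposed replicate 1 was the lowest of all 6 mice and replicates 2 and 3 were the highest, so the noise-exposed mice stood between them. The log2 fold change was -0.38 (SE 0.29, 95% interval -1.06 to 0.30, adjusted p = 0.768 in limma). Against replicate 1 alone, within the first day, it was 0.31, and against replicate 2 alone, within females, it was -0.60. By day the values did not overlap, with 5.00 to 5.43 on the first day and 5.92 to 6.17 on the second, and 9.16% of all tested probe sets were lower in every mouse of the first day. Probe set 1425154_a_at gave 4.83, 4.61 and 4.37 in noise-exposed mice, against 5.25, 4.71 and 4.66 in unexposed mice, a log2 difference of -0.26 (SE 0.21) with overlapping groups. Unexposed replicate 1 was highest here, where it had been lowest on the brighter probe set. Probe set 1448914_a_at exceeded the cutoff only in 2 noise-exposed mice and was not tested. It gave 4.66, 4.18 and 4.27 in noise-exposed mice, against 3.84, 4.14 and 3.93 in unexposed mice. The 3 probe sets are of the type that covers several transcripts of a gene, and they disagree on the order of the mice. Genes of bone-forming cells, which also make Csf1, had 9 of 12 tested and a mean log2 signal of 7.55 to 7.97 in noise-exposed and 7.37 to 7.84 in unexposed mice, and their part in the values of Csf1 was not tested.

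**Figure D2:**
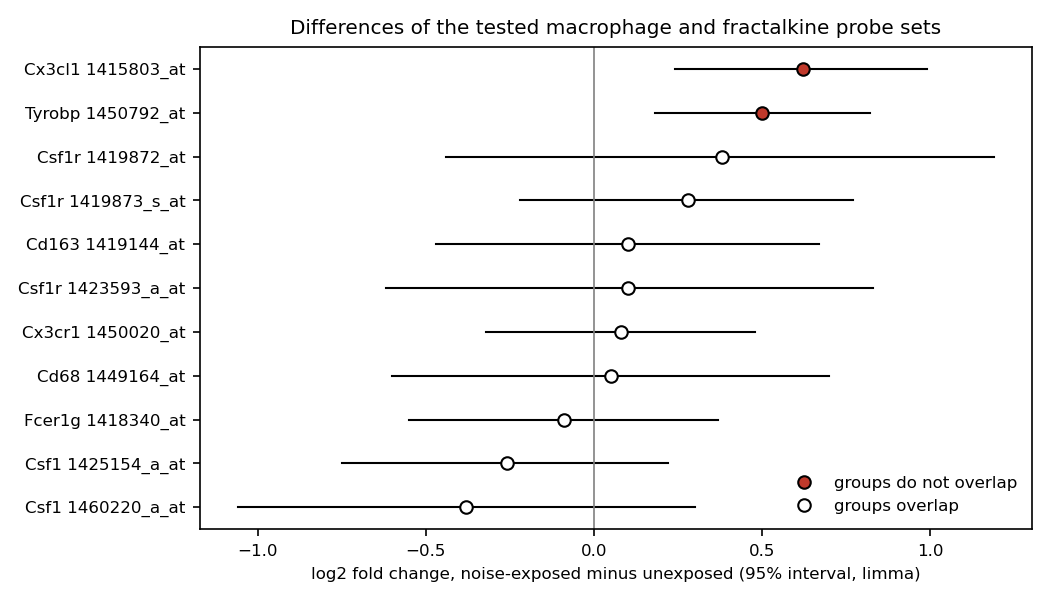
Log2 fold change, noise-exposed minus unexposed, of each tested probe set with its 95% interval from limma (3 mice per group). Filled points are probe sets whose groups do not overlap. The intervals of Cx3cl1 (0.24 to 0.99) and Tyrobp (0.18 to 0.82) lie above 0 before adjustment, and the other 9 span 0.

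Csf1r, the receptor of Csf1, was the member on which the unexposed mice differed most from each other. Probe set 1419872_at gave 7.71, 7.74 and 7.89 in noise-exposed mice, against 6.53, 8.02 and 7.66 in unexposed mice. The noise-exposed mice spanned 0.18 and the unexposed mice 1.49. The means were 7.78 ± 0.10 in noise-exposed and 7.40 ± 0.78 in unexposed mice (SD, n = 3 each), with a log2 difference of 0.38 (SE 0.35, adjusted p = 0.802 in limma). Without unexposed replicate 1 it was -0.06, and within the first day, against that mouse alone, 1.25. Probe set 1419873_s_at gave 6.62, 6.25 and 6.49 in noise-exposed mice, against 5.76, 6.47 and 6.29 in unexposed mice. Like that of Aif1, it is of the type shared by transcripts of several genes. Probe set 1423593_a_at gave 5.42, 4.76 and 4.41 in noise-exposed mice, against 4.24, 4.99 and 5.05 in unexposed mice. Unexposed replicate 1 was the lowest of the 6 mice on each of the 3 probe sets, and the groups overlapped on each. Within females, against replicate 2 alone, the values were -0.24, -0.01 and -0.13 in the same order of probe sets. The brightest probe set was also higher in all 4 females than in both males, as were 14.3% of all tested probe sets. None of the 11 was lower in all females, against 6.88% of all tested probe sets.

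Cx3cr1, the fractalkine receptor, was close to equal in mean between the groups. Probe set 1450020_at gave 5.29, 4.97 and 5.48 in noise-exposed mice, against 5.15, 5.29 and 5.07 in unexposed mice. Noise-exposed mice held both the highest and the lowest value. The log2 fold change was 0.08 (SE 0.17, 95% interval -0.32 to 0.48, adjusted p = 0.918 in limma). Cd163, the macrophage scavenger receptor for haemoglobin bound to haptoglobin, gave 6.16, 5.75 and 6.55 in noise-exposed mice, against 6.11, 6.33 and 5.72 in unexposed mice. Its log2 fold change was 0.10 (SE 0.25, 95% interval -0.47 to 0.67, adjusted p = 0.925). Each group held high and low mice, and the noise-exposed mean lay above unexposed replicates 1 and 3 and differed from replicate 2, the female, by -0.18.

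Tyrobp, the adaptor DAP12 through which Trem2 and related receptors signal, was the other gene whose groups did not overlap. It gave 5.90, 5.77 and 5.80 in noise-exposed mice, against 5.45, 5.29 and 5.24 in unexposed mice, on its 1 probe set. Both groups were tight, with a range of 0.13 in noise-exposed and 0.20 in unexposed mice. The means were 5.83 ± 0.07 in noise-exposed and 5.33 ± 0.11 in unexposed mice (SD, n = 3 each), a log2 difference of 0.50 (SE 0.14, 95% interval 0.18 to 0.82), or 1.41-fold. It did not pass the test (limma, unadjusted p = 0.00696, adjusted p = 0.667). The noise-exposed mean exceeded unexposed replicate 1 by 0.38, replicate 2 by 0.54 and replicate 3 by 0.58. It was 0.38 within the first day (adjusted p = 0.528) and 0.54 within females (adjusted p = 0.344). All 4 mice of the first day lay above both of the second for Tyrobp too, between 5.45 and 5.90 against 5.24 to 5.29. Markers of other cells that carry Tyrobp were sparse. Of 14 neutrophil genes 2 were tested, S100a8 and S100a9, with a mean log2 signal of 5.12 to 6.16 in noise-exposed and 3.98 to 5.88 in unexposed mice. Of 10 T and NK cell genes 1 was tested, Cd3e, a marker of T cells and not of NK cells. It lay at 4.35 to 4.74 in noise-exposed and 5.03 to 5.41 in unexposed mice, a log2 difference of -0.66 without overlap (adjusted p = 0.667 in limma). Of all named genes, 3.41% were without overlap and lower. The NK cell genes Ncr1, Nkg7, Gzma and Gzmb had no tested probe set. The osteoclast genes tested, 3 of 11, lay at 4.84 to 5.18 in noise-exposed and 4.83 to 5.09 in unexposed mice. A part of these cells in the difference of Tyrobp was not tested.

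Fcer1g, the Fc receptor gamma chain, is an adaptor of the same kind as Tyrobp, and its values took another order. Whether the same cells of the modiolus carry both transcripts was not tested. Fcer1g gave 5.84, 5.60 and 5.72 in noise-exposed mice, against 5.42, 6.03 and 5.99 in unexposed mice. The noise-exposed mice stood between replicate 1 and the other unexposed mice, as they did for Csf1. The log2 fold change was -0.09 (SE 0.20, 95% interval -0.55 to 0.37, adjusted p = 0.918 in limma), and within the first day it was 0.30. Fcer1g was lower in every mouse of the first day than in both of the second. Cd68, a lysosomal glycoprotein of macrophages, gave 4.61, 5.12 and 4.94 in noise-exposed mice, against 4.61, 5.46 and 4.47 in unexposed mice. Its log2 fold change was 0.05 (SE 0.28, adjusted p = 0.968), and unexposed replicate 2 had the highest value. Noise-exposed replicate 1, a female, and unexposed replicate 1, a male, differed by 0.0049, so the order of females above males, which Cd68 met, rests on a gap far below the spread of either group. Against replicate 2, the unexposed female, the difference was -0.57.

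**Figure D3:**
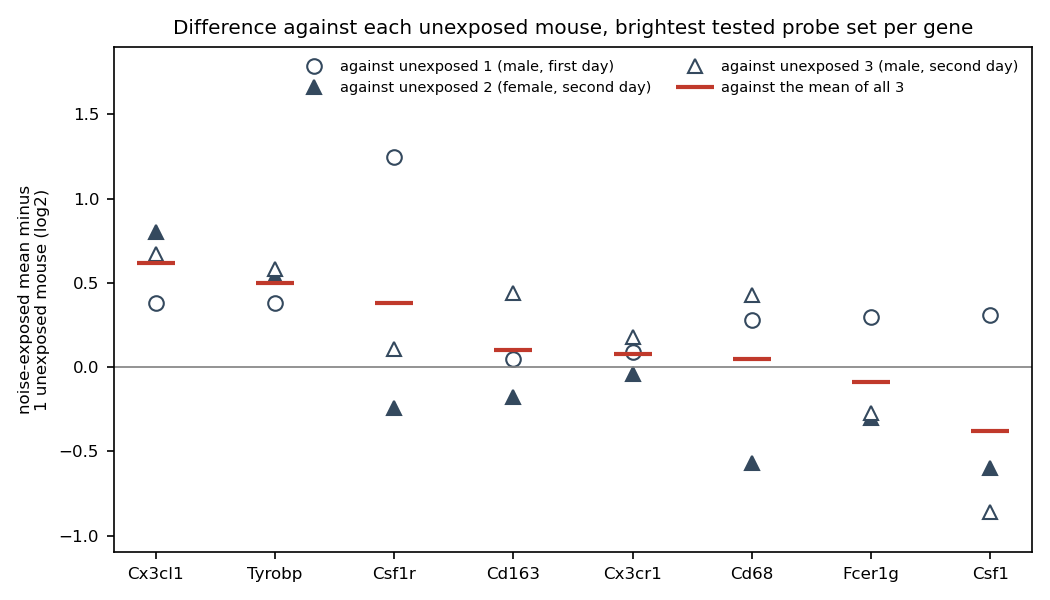
Mean log2 signal of the 3 noise-exposed mice minus that of 1 unexposed mouse, for the brightest tested probe set of each gene; the bar is the difference from the mean of all 3 unexposed mice. For Cx3cl1 (0.38 to 0.80) and Tyrobp (0.38 to 0.58) the 3 symbols lie on the same side of 0, as they must where groups do not overlap. For the other 6 genes the symbols lie on both sides.

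Across the 8 genes, those without overlap between the groups were 2 higher and 0 lower. Of the named genes tested, 10.4% were without overlap and higher and 3.41% without overlap and lower (over all tested probe sets, 8.47% and 5.02%). With so few genes these counts do not set the group apart from the array. The unexposed mice had the wider spread for 6 of the 8 genes, against 65.4% of the named genes. In unexposed replicate 1, 3 of the 8 genes had their lowest value, and 3 had it in unexposed replicate 3. Over the named genes 26.2% and 26.5% had their lowest value in those mice. Against unexposed replicate 1, the only unexposed mouse of the first day, 6 of the 8 genes were higher in every noise-exposed mouse: Cd68 (by 0.0049 in the lowest of them), Csf1, Csf1r, Cx3cl1, Fcer1g and Tyrobp. Of all named genes tested, 44.2% were higher in every noise-exposed mouse than in that mouse. Against replicate 2, the only unexposed female, 2 were higher in every noise-exposed mouse (Cx3cl1 and Tyrobp) and 4 were lower (Cd68, Csf1, Csf1r and Fcer1g). Of all named genes tested, 30.2% were higher and 32.0% lower in every noise-exposed mouse than in replicate 2. The noise-exposed mean lay above some unexposed mice and below others for 6 of the 8 genes, all but Cx3cl1 and Tyrobp, and for 61.1% of all named genes. An exact permutation test of 3 against 3 mice cannot give a p below 0.1.

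Further genes of the same pathways were taken from fixed lists, and limma called 0 of them in either direction in every list. In the Csf1r pathway 9 of 13 genes were tested, with 5 above 0, 4 below and a median log2 fold change of 0.01. Il34, the second ligand of Csf1r, was on the array and had no tested probe set. The lowest unadjusted p belonged to Pik3cg, a lipid kinase subunit of leukocytes, at 4.83, 3.86 and 4.06 in noise-exposed mice, against 5.40, 5.36 and 5.71 in unexposed mice. The groups did not overlap. Since 2 of the noise-exposed values lay below the cutoff, the log2 fold change of -1.24 (SE 0.26, adjusted p = 0.667) includes signal at background. Cebpa, a transcription factor of the myeloid lineage, stood at 0.55 (SE 0.20, adjusted p = 0.692). Gab2, a docking protein downstream of Csf1r, stood at 0.40, with another probe set of opposite sign. The transcription factor Maf stood at -0.23 without overlap (limma, adjusted p = 0.729), and its 4 other tested probe sets had the same sign. Of all named genes, 3.41% were without overlap and lower, as Pik3cg and Maf were here.

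Fractalkine is cut from the membrane by the proteases Adam10 and Adam17, and cathepsin S acts on it as well. Among these and a set of chemokines and chemokine receptors 5 of 16 genes were tested, with a median log2 fold change of -0.09. Adam10 averaged 11.24 ± 0.03 in noise-exposed and 11.40 ± 0.08 in unexposed mice (SD, n = 3 each), a log2 difference of -0.15 with no overlap (adjusted p = 0.786 in limma). Of all named genes, 3.41% were without overlap and lower. Ctss, which encodes cathepsin S, stood at 0.24 and Cxcr4 at -0.29. Cxcl12, the ligand of Cxcr4, stood at 0.09, with another probe set of opposite sign. None of the inflammatory chemokines Ccl2, Ccl3, Ccl4, Ccl5, Ccl7, Ccl12 and Cxcl10, nor Ccr1 and Ccr2, had a tested probe set. Their signals were thus not above background on enough arrays to be compared.

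Receptors and kinases that work with Tyrobp and Fcer1g were mostly not detected, with 6 of 25 genes tested and a median log2 fold change of 0.12. Fcgr3, an activating IgG receptor that needs Fcer1g, averaged 6.13 ± 0.15 in noise-exposed and 5.82 ± 0.18 in unexposed mice (SD, n = 3 each), a log2 difference of 0.31 (SE 0.16, adjusted p = 0.711 in limma). Fcgr1, the high-affinity IgG receptor, stood at -0.13. Of the partners of Tyrobp, Siglech stood at 0.15 and Trem2 at -0.14, and their groups overlapped. The probe set of Trem2 is of the type shared by transcripts of several genes. Among integrin partners of Itgam 5 of 9 were tested, with a median of 0.07. Tln1, the integrin activator talin, stood at 0.63 with no overlap (limma, adjusted p = 0.680), and another of its probe sets had the opposite sign. Of all named genes, 10.4% were without overlap and higher. Coro1a, an actin regulator of leukocytes, stood at 0.12, also with a probe set of opposite sign. The adhesion molecules Icam1 and Icam2, ligands of leukocyte integrins, stood at -0.10 and 0.07. In females alone the median of these integrin partners was 0.34. Tln1 was 0.47 there, Icam2 0.34, Coro1a -0.10 and Icam1 -0.73. Genes of haem and iron handling, which stand beside Cd163, had 7 of 12 tested and a median of -0.05, with 3 above 0 and 4 below. Lrp1 stood at 0.18, with a probe set of opposite sign, and Blvra, a biliverdin reductase, at 0.16. Hmox1, the inducible haem oxygenase, stood at -0.33 (SE 0.37) and Blvrb, the other biliverdin reductase, at -0.16. In females alone Hmox1 was -1.15, Blvrb -0.22, Lrp1 -0.02 and Blvra 0.06.

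Other macrophage genes gave the widest view, with 20 of 28 tested. Of these 15 lay above 0 and 5 below, with a median log2 fold change of 0.09, where 63.3% of named genes lay above 0. Ctsb, a lysosomal protease, averaged 11.43 ± 0.07 in noise-exposed and 11.16 ± 0.03 in unexposed mice (SD, n = 3 each), and Mpeg1, a pore-forming protein of macrophages, 5.16 ± 0.09 in noise-exposed and 4.83 ± 0.26 in unexposed mice. Both were without overlap and did not pass the test (limma, adjusted p = 0.711 for each). These were the 2 of the 20 genes without overlap and higher, and 10.4% of all named genes were so. Laptm5 stood at 0.26, and F13a1, a gene of perivascular macrophages, at -0.39, or -0.15 without noise-exposed replicate 3. Microglial genes had 5 of 9 tested and a median of 0.11. Of these 4 lay above 0 (Gpr34 at 0.20, P2ry12 at 0.23, Tmem119 at 0.11 and Olfml3 at 0.10) and 1 below, at -0.12. The median of the microglial genes was 0.42 on the first day alone (P2ry12 at 0.90) and -0.16 in females alone. Antigen presentation had 5 of 9 tested and a median of 0.09, with the class II chain gene H2-Aa at 0.45, with 5.64, 5.69 and 6.70 in noise-exposed mice against 5.50, 5.55 and 5.63 in unexposed mice, on a probe set that may cross-hybridise. Cd74, the invariant chain, stood at 0.29, H2-DMa at 0.09 and Cd40 at -0.06, the last on a probe set of the type shared by transcripts of several genes. Of 7 monocyte genes 2 were tested, of 7 mast cell genes 3, and of 8 B cell genes 0.

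**Figure D4:**
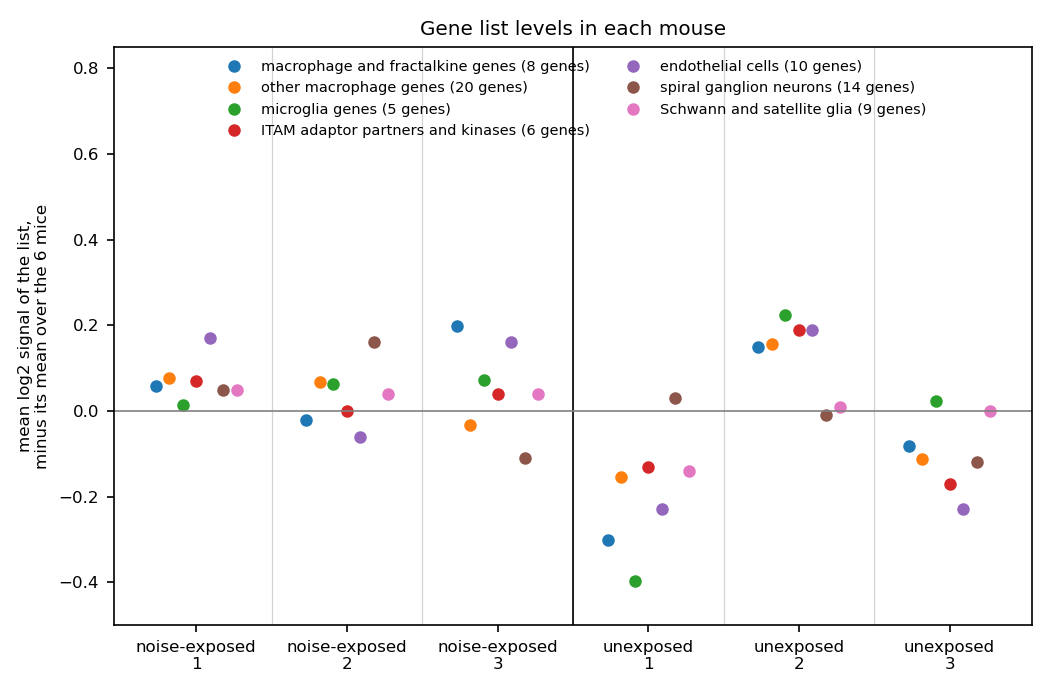
Mean log2 signal of 7 gene lists in each mouse, minus the list's mean over the 6 mice, with noise-exposed mice on the left. The 4 macrophage-related lists and the endothelial list are below 0 in unexposed replicate 1 and above it in unexposed replicate 2. The noise-exposed values of these lists overlap with the unexposed ones. The Schwann and satellite glial list is also below 0 in unexposed replicate 1.

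Levels of 3 macrophage-related lists had a wider range among unexposed than among noise-exposed mice. The 8 macrophage and fractalkine genes averaged 5.84, 5.76 and 5.98 in noise-exposed mice, against 5.48, 5.93 and 5.70 in unexposed mice. The 20 other macrophage genes averaged 6.64, 6.63 and 6.53 in noise-exposed mice, against 6.41, 6.72 and 6.45 in unexposed mice. The 5 microglial genes averaged 5.78, 5.83 and 5.84 in noise-exposed mice, against 5.37, 5.99 and 5.79 in unexposed mice. In each of these 3 lists unexposed replicate 1 was the lowest mouse, and the groups overlapped. The other such list was that of receptors and kinases that work with Tyrobp and Fcer1g. It averaged 4.83 to 4.90 in noise-exposed and 4.66 to 5.02 in unexposed mice, and was lowest in unexposed replicate 3. Neither the wider unexposed range nor the low replicate 1 was particular to macrophage lists. Endothelial genes averaged 5.98 to 6.21 in noise-exposed and 5.81 to 6.23 in unexposed mice, lowest in unexposed replicates 1 and 3. Schwann and satellite glial genes, 9 of 12 tested, averaged 10.72 to 10.73 in noise-exposed and 10.54 (replicate 1) to 10.69 in unexposed mice. Their part in the macrophage values was not tested. The excess of the end over the start of the actin control transcript, a sign of RNA integrity and amplification, was 2.23, 2.04 and 2.28 in noise-exposed and 1.93, 1.97 and 2.08 in unexposed mice. For the Gapdh control transcript it was 1.32, 1.17 and 1.48 in noise-exposed and 1.23, 1.21 and 1.32 in unexposed mice. Noise-exposed mice thus held the highest value of both transcripts and the lowest of Gapdh, and the groups overlapped on both transcripts.

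The genes with the most similar course over the 6 mice were found by the root mean square difference of centred log2 values. Candidates were named genes that varied at least as much as the profile itself. For the mean profile of Cd163, Cd68, Csf1r, Cx3cr1, Fcer1g and Tyrobp the nearest were Lipo3 (difference 0.0311), Mrm1, Dhx30, Flrt1 and Sfrp1, and none of these 5 is in a macrophage list used here. That profile had an SD of 0.21 over the mice, and 6641 genes varied as much. For Cx3cl1 the nearest were Kank3 (difference 0.111), Tef, AA414768, Tspan4 and Mybpc1. Tef, a transcription factor with a daily rhythm, gave 9.88, 9.88 and 9.81 in noise-exposed mice, against 9.72, 8.99 and 9.21 in unexposed mice, so it too was lower in both mice of the second day. For Csf1 they were Zfp85os (difference 0.0798), 2310075K07Rik, Lair1, Agtrap and AB124611. Lair1, an inhibitory collagen receptor of leukocytes, gave 5.82, 5.64 and 6.03 in noise-exposed mice, against 5.26, 6.31 and 6.78 in unexposed mice. With only 6 mice and so many candidates, such likeness is a description.

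The authors' deposited table of receptors in the adult cochlea holds 7 probe sets of 4 of these genes. It gives the mean over 17 arrays normalized together, 11 of them of whole cochlea from other series, and a corrected p for exceeding a cutoff of 5.1. In the authors' deposited table Csf1r had means of 9.28, 7.74 and 6.50 on its 3 probe sets, with corrected p-values of 2.38e-07, 1.54e-07 and 0.00229. Fcer1g had a mean of 7.97 with a corrected p of 1.12e-05 in the authors' deposited table. There Cx3cr1 had 5.71 with a corrected p of 0.000132 on the probe set tested above, and 3.86 with a corrected p of 1 on the other, by the authors' deposited table. Cd163 averaged 5.31 in the authors' deposited table and did not pass there (corrected p = 1), although it lay above 4.25 on all 6 arrays of the present series. None of these 4 genes is among the receptors that the authors' deposited list names as changed after noise. The other genes described here, Cx3cl1 and Tyrobp among them, are not in the authors' table of receptors. Their absence from that list is thus no result.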

How the data were processed

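Per the authors' deposited code file, the deposited log2 signals come from RMA, a robust multi-array average with quantile normalization, run over the 6 arrays at once (R 2.6.1, Bioconductor release 2.1). Quantile normalization hides a shift of most transcripts in 1 direction. Per the labels' protocols, total RNA of 8 to 21 ng per mouse was amplified before labelling, which can widen the spread. The authors' deposited table of 17 arrays adds means on the log2 scale and corrected p-values.

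Of 45101 probe sets, 34958 had 1 gene symbol, 932 several and 9211 none; 34754 were matched to RefSeq by Entrez ID, and 64 control probe sets were left out. Between 24704 and 25404 probe sets per array exceeded the cutoff, and Pearson's r between arrays across probe sets was 0.975 to 0.991. Groups were tested two-sided by lmFit and eBayes of limma 3.58.1 (R 4.3.3), with Benjamini-Hochberg adjustment over 25200 probe sets. Each log2 fold change subtracts the unexposed from the noise-exposed mean. The procedure was tested on simulated data. The number of arrays limits the precision.

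The genes and lists were chosen with earlier results of these data known. Named genes are all members, up to 4 genes per other list by unadjusted p, and the 5 most similar genes per profile; Il34, the undetected chemokines and undetected markers were named with their values known. Other settings tried were scaling, the signal filter, eBayes with trend, covariates, a block, subsets and leaving out each mouse.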

Additional observations from a re-analysis of the deposited data

How the results depend on the processing

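No alternative called any of the 11 tested probe sets. Over the whole array the count of 0 became 3 on the first day alone and 0 to 15 with 1 mouse left out, the 15 without unexposed replicate 2. Cx3cl1 (0.38 to 0.80, adjusted p 0.292 to 0.992) and Tyrobp (0.38 to 0.56, adjusted p 0.294 to 0.992) kept their direction in all 17 alternatives. As their groups did not overlap, the direction could not turn in a subset or with a mouse left out. The median of the 8 genes was 0.31 with the day of dissection as a covariate or on the first day alone, and -0.21 with sex as a covariate or in females alone. Genes without overlap and higher numbered 6 of 8 on the first day alone, where 44.2% of all named genes were so, and 2 to 4 with 1 mouse left out (4 without unexposed replicate 2, where 23.2% of named genes were so). Those lower numbered 4 in females alone, where 32.0% of named genes were so, 1 (Csf1) with the mean of all tested probe sets per gene, and 0 to 2 with 1 mouse left out (Csf1 and Fcer1g without unexposed replicate 1, where 9.82% of named genes were so). The covariate and block fits give no such counts. Among the other lists, the median moved to 0.42 by day and -0.16 by sex for microglial genes, to 0.34 by sex for integrin partners, to -0.21 by sex for endothelial and for mast cell genes, to 0.35 by day for Schwann cell genes, and to -0.33 by day and 1.58 by sex for the 2 neutrophil genes. That of osteoclast genes was -0.24 with signal above the cutoff required on all 6 arrays.

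With sex as a covariate, or in females alone, the direction turned for Cd163 (-0.18), Cd68 (-0.57), Csf1r (-0.24, -0.01 and -0.13 on its 3 probe sets), Cx3cr1 (-0.04), Coro1a (-0.10), Cxcl12 (-0.05), Gpr34 (-0.25), H2-DMa (-0.19), Cd40 (0.02), Lrp1 (-0.02) and P2ry12 (-0.16). With the day as a covariate, or on the first day alone, it turned for Csf1 (0.31 on the brightest probe set), Fcer1g (0.30), Cxcr4 (0.11), Icam1 (0.17), Icam2 (-0.20) and Fcgr1 (0.09), and with the RNA input as a covariate for Fcer1g (0.03). These subsets hold 1 unexposed mouse each, assumed to vary like the others. With 1 mouse left out, 14 of the 43 named log2 fold changes turned sign in at least 1 fit, 20 moved by over 1.5 times without turning, and 9 did neither (Adam10, Cebpa, Ctsb, Cx3cl1, Fcgr3, Gab2, Maf, Pik3cg and Tyrobp). The ranges of those that turned were Cd163 -0.10 to 0.30, Cd40 -0.14 to 0.06, Cd68 -0.14 to 0.36, Coro1a -0.11 to 0.25, Csf1r (1419872_at) -0.06 to 0.68, Csf1r (1423593_a_at) -0.18 to 0.33, Cx3cr1 -0.04 to 0.22, Fcer1g -0.29 to 0.02, H2-DMa -0.12 to 0.23, Hmox1 -0.63 to 0.08, Icam1 -0.28 to 0.22, Icam2 -0.10 to 0.20, Olfml3 -0.02 to 0.24 and P2ry12 -0.10 to 0.43. Those that moved without turning ranged as follows: Blvra 0.05 to 0.24, Blvrb -0.34 to -0.02, Cd74 0.16 to 0.40, Csf1 (1425154_a_at) -0.38 to -0.08, Csf1 (1460220_a_at) -0.73 to -0.15, Csf1r (1419873_s_at) 0.07 to 0.43, Ctss 0.13 to 0.36, Cxcl12 0.04 to 0.15, Cxcr4 -0.49 to -0.10, F13a1 -0.57 to -0.15, Fcgr1 -0.23 to -0.05, Gpr34 0.08 to 0.42, H2-Aa 0.10 to 0.63, Laptm5 0.17 to 0.38, Lrp1 0.06 to 0.28, Mpeg1 0.19 to 0.45, Siglech 0.04 to 0.23, Tln1 0.41 to 0.80, Tmem119 0.05 to 0.15 and Trem2 -0.26 to -0.04. The cause was not tested. A p over 3 mice per group measures only the spread between these mice, and with a median SE of 0.19 small differences could not be resolved.

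The replicate numbers did not pair the mice (correlations of deviations 0.09, 0.03 and -0.04). With the replicate block limma called 0 probe sets, and the log2 fold changes of Cx3cl1 and Tyrobp were 0.62 and 0.50.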
